A study of Mus musculus with 32 samples.

Results

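RNA was measured in tibialis anterior, a fast muscle of the shin, of young C57BL/6J mice that had received vehicle. One group had no injury, and the other was taken 7 days after barium chloride injury (the labels write BaCl). These 8 libraries, 4 per group, were chosen by their group label from 32 libraries in 8 groups, and all genes were compared. Both groups are wild type, and the labels give age only as young or old. The uninjured columns are named PBS and belong to the 35-day set, so day 7 has no uninjured set of its own, and injury and collection set cannot be told apart. Whether each library is a separate mouse, or animals were pooled, is not in the labels. P-values therefore measure the spread between samples within groups, which may be technical and was estimated over all 32 libraries.

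Barium chloride kills muscle fibres but spares many satellite cells, the stem cells that lie beside each fibre. Macrophages clear the debris, fibro-adipogenic progenitors lay down a temporary matrix, and satellite cells divide, become myoblasts and fuse into new fibres. New fibres first use embryonic and neonatal forms of the contractile proteins and fetal acetylcholine receptors. Adult fast forms replace them as the fibre grows and its nerve reconnects. The labels do not state which comparisons were planned, and this one describes the muscle at a single time of that sequence.

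Total counts per library were 15207125 to 17634255 in uninjured muscle and 15458439 to 17798256 at day 7. The filter on low counts kept 17121 genes, and 10413 of them (60.8%) were called at an adjusted p under 0.05 in edgeR's quasi-likelihood test with Benjamini-Hochberg adjustment. Of these, 5698 (33.3% of genes tested) were higher at day 7 and 4715 (27.5%) lower. All 4 day 7 libraries lay above all 4 uninjured ones for 4660 genes (27.2%) and below them for 3753 (21.9%). The tested genes had a median log2 fold change of 0.17 with TMM scaling and 1.05 with library size alone, which raised the share of calls that were higher from 54.7% to 87.3%. Directions are relative to TMM scaling, and the text says where library size alone moves a list. The first principal component (70.6% of the variance) separated the groups, and day 7 library 7 lay nearest to uninjured muscle on it (80.1, against 110 to 129 for the other day 7 libraries). Uninjured libraries 2 and 4 resembled each other more (chi-square per degree of freedom 16.2) than the other uninjured pairs did (74.3 to 122). They had higher collagen and macrophage counts than libraries 1 and 3, whose ubiquitin ligase counts were higher. Beside a log2 fold change of day 7 against uninjured muscle, the value without a library is given where leaving it out ended the call or moved the value by over 1.5 times.

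Values per library are CPM, meaning counts per 1e6 after TMM scaling of the total, in the order of uninjured libraries 1 to 4 and day 7 libraries 4 to 7. Log2 fold changes are day 7 over uninjured with the standard error (SE) of the fit. The label skeletal muscle held in both states. The 10 fibre markers summed to 210349 to 265601 CPM in uninjured muscle and 70567 to 148338 CPM at day 7, when 6 of the 10 fell (5 fell and 3 rose with library size alone). In bulk tissue, fewer cells of a type and less RNA per cell cannot be told apart, here and in every list below.

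Satellite cell genes rose. Pax7, the transcription factor that defines these cells, was at 0.928, 3.65, 2.12 and 4.82 CPM in uninjured libraries and at 23.6, 16, 16.3 and 13.7 CPM at day 7 (log2 2.61 ± 0.34, adjusted p = 9.65e-08). Myf5, which marks activated satellite cells and myoblasts, was at 1.86, 2.05, 2.58 and 1.64 CPM and then at 9.56, 8.73, 11.9 and 14.1 CPM (log2 2.44 ± 0.30, adjusted p = 2.84e-08). Groups did not overlap for either gene, and day 7 library 7 had the least Pax7 and the most Myf5. Myod1, which commits cells to the muscle lineage, rose to a like level in all day 7 libraries, from 31.9, 25.3, 25.4 and 26.2 to 90.8, 79.4, 86.6 and 87.1 CPM (log2 1.66 ± 0.20, adjusted p = 3.15e-08). Of 12 satellite cell markers, 9 rose and 0 fell, including the growth factor receptor gene Fgfr4 (log2 3.55). The cadherin gene Cdh15 was not called (-0.15 ± 0.23, adjusted p = 0.565), and its value was 0.76 with library size alone.

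Regulators of muscle differentiation moved in both directions. Myog, which drives myoblasts to differentiate, rose from 18.2, 4, 29.8 and 6.17 to 76.3, 112, 72.3 and 46.2 CPM (log2 2.39 ± 0.59, adjusted p = 0.00106; 3.002 without uninjured library 3). Sox8, a transcription factor found in satellite cells, was at 0.387, 0.178, 0.276 and 0.193 CPM without injury and 8.85, 9.92, 6.24 and 4.95 CPM after it (log2 4.80 ± 0.59, adjusted p = 3.31e-08). Both genes were higher in every day 7 library than in any uninjured one. Mef2d, a partner of the myogenic factors in differentiated fibres, fell (log2 -1.19 ± 0.15, adjusted p = 5.43e-08). Myf6, the regulator that is most abundant in mature fibres, was at 391, 145, 264 and 116 CPM without injury and 79.2, 72.1, 86.7 and 80.7 CPM at day 7 (log2 -1.52 ± 0.32, adjusted p = 0.00018). Its call was lost with library size alone (adjusted p = 0.06) and without uninjured libraries 1 and 3 (0.0704). In the list of 15 regulators, 6 rose and 7 fell, with a median of -0.49. With library size alone 7 rose, 2 fell and the median was 0.38.

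Genes of myoblast fusion and adhesion were mostly higher at day 7. Mymk encodes myomaker, a membrane protein that myoblasts need to fuse, and was at 0, 0.356, 0 and 0.482 CPM without injury and 50.5, 55.9, 56.8 and 36.4 CPM at day 7 (log2 7.92 ± 1.21, adjusted p = 3.19e-06; 8.69 without uninjured library 4, from 9 uninjured counts in all). Mymx, whose small protein completes fusion beside myomaker, had 3 counts in the 4 uninjured libraries, all in library 4, and its share of counts was 136 times higher at day 7 (exact 95% interval 46.3 to 659.8, counting error only). That ratio rests on the 1 uninjured library with counts. Day 7 library 7 had the least of both genes. The adhesion genes Ncam1 (from 5.1, 3.11, 4.87 and 4.82 to 159, 128, 146 and 93.8 CPM; log2 4.88 ± 0.48, adjusted p = 1.45e-09) and Cdh2 (log2 5.17 ± 0.60, adjusted p = 2.13e-08) and the fusion adaptor gene Dock1 (log2 2.18 ± 0.24, adjusted p = 3.15e-09) were higher in every day 7 library than in any uninjured one. Of 17 tested members of this list, 13 rose and 1 fell, with a median of 2.37 against 0.17 for all genes. The member that fell was the membrane repair gene Dysf (log2 -0.60 ± 0.22, adjusted p = 0.0194). It was not called without uninjured library 3 (adjusted p = 0.226), day 7 library 4 (0.0679) or day 7 library 5 (0.0563), and was at 0.26 with library size alone. The integrin gene Itgb1, at 412, 289, 441 and 265 CPM without injury and 446, 435, 381 and 426 CPM at day 7, was not called (log2 0.26 ± 0.16, adjusted p = 0.16). It was called higher with library size alone (1.15).

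**Figure D1:**
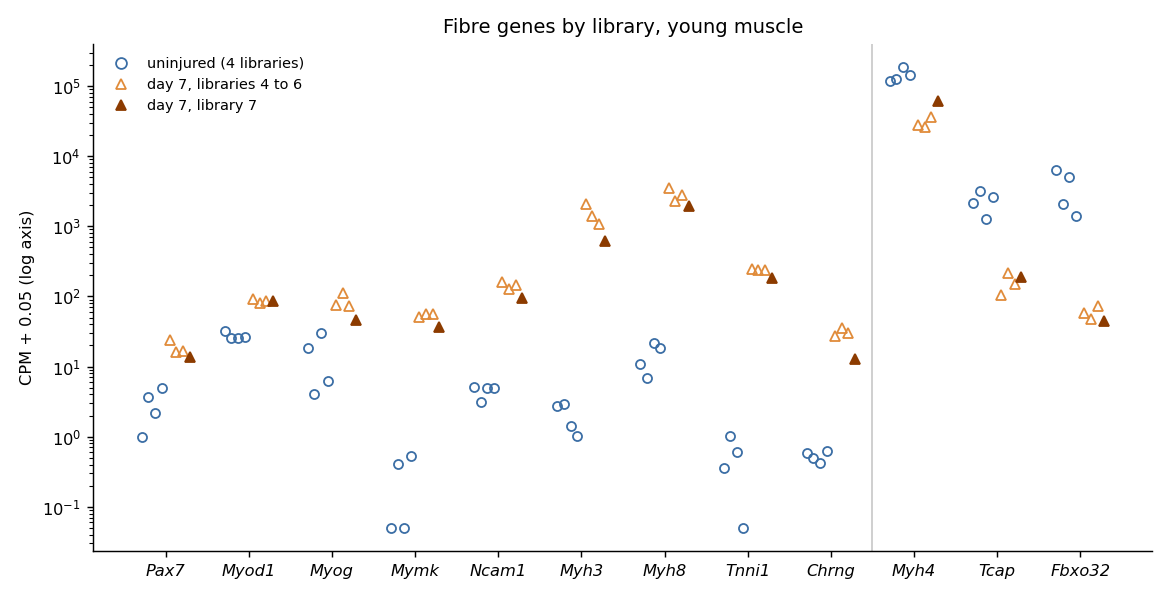
CPM per library (log axis, with 0.05 added so that libraries without counts can be drawn) of 12 genes of satellite cells, fusion, new fibres and adult fast fibres. Circles are the 4 uninjured and triangles the 4 day 7 libraries, with day 7 library 7 filled in a darker colour. The 9 genes on the left are higher in every day 7 library and the 3 on the right lower, and library 7 is the day 7 library nearest the uninjured level in Myh3, Chrng and Myh4.

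Contractile isoforms of developing fibres had the highest median of the fibre lists. Myh3, the embryonic myosin heavy chain, was at 2.71, 2.85, 1.38 and 0.965 CPM without injury and 2079, 1387, 1088 and 621 CPM at day 7 (log2 9.33 ± 1.37, adjusted p = 1.92e-06). Myh8, the neonatal chain, went from 10.9, 6.76, 21.8 and 18.1 to 3546, 2268, 2828 and 1949 CPM (log2 7.52 ± 0.74, adjusted p = 1.63e-09). Day 7 libraries lay far above the uninjured ones for both, highest in library 4 and lowest in library 7. Both genes and Myh4 lie in the myosin cluster of chromosome 11, where the deposited annotation (mm10) places Myh3 at 67078300 to 67102291, Myh4 at 67238029 to 67260446 and Myh8 at 67277124 to 67308634. The embryonic light chain gene Myl4 (from 7.5, 5.16, 7.82 and 6.95 to 257, 298, 312 and 263 CPM; log2 5.36 ± 0.61, adjusted p = 2.16e-08) was even across day 7 libraries. Slow and cardiac troponins of new fibres rose as well, with Tnni1 at 0.309, 0.979, 0.552 and 0 CPM and then 245, 236, 234 and 180.3 CPM (log2 8.90 ± 1.41, adjusted p = 5.4e-06; 9.55 without uninjured library 2). Tnnt2 (log2 6.72 ± 1.06, adjusted p = 4.92e-06) and Tnnt1 (log2 7.53 ± 1.29, adjusted p = 1.7e-05; 8.18 without uninjured library 2) were like it. Of 18 members, 14 rose and 2 fell, with a median of 3.79. The filamin gene Flnc was one of those that fell (log2 -1.35 ± 0.35, adjusted p = 0.00137), and its call was lost without uninjured libraries 1 and 3 (adjusted p = 0.615) and with library size alone (0.152).

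Adult fast fibre isoforms fell to different degrees. Myh4, the fast type IIb chain, went from 116856, 126667, 186629 and 145938 CPM to 27550.4, 25944, 35944 and 60265 CPM (log2 -1.94 ± 0.44, adjusted p = 0.000295). Its day 7 libraries were all below the uninjured ones, with library 7 highest. Tcap, which caps titin at the Z-disc, fell further, from 2167, 3229, 1259 and 2617 to 104, 217, 148 and 187 CPM (log2 -3.82 ± 0.41, adjusted p = 3e-09). Mybpc2 (log2 -2.31 ± 0.47, adjusted p = 9.74e-05) and the fast alpha-actinin gene Actn3 (log2 -1.999 ± 0.40, adjusted p = 7.62e-05) fell as Myh4 did. Some abundant adult genes did not fall beyond the spread. Acta1, skeletal alpha-actin, was at 34330.1, 43553, 31867 and 41356 CPM and 19318, 20785, 28836 and 39242 CPM (log2 -0.48 ± 0.31, adjusted p = 0.174), and day 7 library 7 alone lay among the uninjured values. Myh1, the type IIx chain, was at 6007, 6570.0, 4102 and 4252 CPM without injury and 7191, 5096, 9396 and 12454 CPM at day 7 (log2 0.71 ± 0.56, adjusted p = 0.276). Library size alone called Myh1 higher (1.54). Myh2, the type IIa chain, rose from 4.33, 9.17, 6.9 and 9.36 to 135, 86.4, 60.4 and 36.6 CPM (log2 3.42 ± 1.02, adjusted p = 0.0055), but was not called without uninjured libraries 1 and 3 (adjusted p = 0.0746). Of 21 members 1 rose and 15 fell (median -1.31), and with library size alone 3 rose and 9 fell (median -0.46).

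Acetylcholine receptor genes rose, the fetal gamma subunit most. In fetal and denervated muscle the gamma subunit (Chrng) takes the place that the epsilon subunit (Chrne) holds at adult junctions. Chrng was at 0.541, 0.445, 0.368 and 0.579 CPM without injury and 27.2, 35.5, 30.4 and 12.6 CPM at day 7 (log2 5.75 ± 1.02, adjusted p = 2.71e-05). Chrne was at 8.27, 7.39, 3.31 and 5.79 CPM and 10.2, 11.7, 10.8 and 26.1 CPM (log2 1.24 ± 0.47, adjusted p = 0.0255), and its call rested on day 7 library 7 (adjusted p = 0.188 without it) and on uninjured libraries 3 (0.0873) and 4 (0.0545). Leaving out libraries 1 and 3 (0.128) or 2 and 4 (0.0846) ended it as well. The share of Chrng in the CPM per kilobase of the pair was 2.59, 2.39, 4.32 and 3.9% in uninjured libraries and 51.9, 55.3, 53.4 and 16.4% at day 7, so library 7 stood apart from libraries 4 to 6. The other subunits rose as well, with Chrna1 from 30.7, 14.9, 16.7 and 12 to 202, 191, 179.9 and 134 CPM (log2 3.25 ± 0.42, adjusted p = 1.76e-07), Chrnd by 4.42 and Chrnb1 by 1.13 on the log2 scale. Lrp4, the muscle receptor for agrin (log2 2.25 ± 0.26, adjusted p = 7.94e-09), Agrn, agrin itself (log2 1.37 ± 0.14, adjusted p = 1.73e-09), and the neuregulin receptor subunit gene Erbb2 (log2 2.38 ± 0.29, adjusted p = 3.45e-08) were higher in all day 7 libraries. Musk, the kinase that clusters the receptor, was at 102, 22.7, 136 and 9.65 CPM without injury and 21.9, 13.4, 14.4 and 13.3 CPM at day 7 (log2 -2.10 ± 0.48, adjusted p = 0.000457). Uninjured libraries 1 and 3 held most of its counts, and without them the value was -0.04 (adjusted p = 0.942; -1.51 without library 3 alone). Of 16 members, 14 rose and 1 fell (median 1.37).

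The promoter of Chrna1 is shown because the receptor genes are known targets of the myogenic factors, which bind E-boxes. The window holds the 250 bases before the RefSeq start (GRCm38.p6, the build of mm10), on the minus strand at chr2:73580339-73580588, where the deposited gene (chromosome 2, 73563215 to 73580338) also begins. Capitals mark the E-box CAGCTG, which reads the same on both strands and begins 92 and 44 bases before the start:
Chrna1: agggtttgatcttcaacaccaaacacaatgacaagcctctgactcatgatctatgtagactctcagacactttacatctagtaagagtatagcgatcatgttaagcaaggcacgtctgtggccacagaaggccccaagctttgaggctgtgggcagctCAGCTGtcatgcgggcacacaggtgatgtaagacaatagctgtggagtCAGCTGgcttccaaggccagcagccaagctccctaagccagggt
The same letters were in 5 of 13 windows of this list (38.5%) and in 7 of 19 windows of developing sarcomere genes (36.8%). Adult fast sarcomere genes had them in 4 of 13 windows (30.8%), fusion genes in 1 of 9 (11.1%) and myogenic regulators in 0 of 11. They were in 12.8% of the 15226 windows of tested genes and in 13% of all 32841 windows of this length. A match describes the letters and does not show a bound site. Mymk, Mymx and Chrnd were not in the promoter table.

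Isoforms of calcium release and uptake changed in both directions. Adult fibres use the ryanodine receptor gene Ryr1 and the pump gene Atp2a1, and new fibres also use Ryr3 and Atp2a2. Ryr1 went from 10846, 9671, 18951 and 11680.3 to 2841, 2581, 3918 and 4814 CPM (log2 -1.85 ± 0.33, adjusted p = 1.51e-05) and Atp2a1 from 37837, 44282, 46641 and 49106 to 9887, 9785, 13968 and 21949 CPM (log2 -1.68 ± 0.38, adjusted p = 0.000329). Atp2a2 rose from 56.1, 43.2, 38.3 and 36.4 to 366, 284, 323 and 225 CPM (log2 2.78 ± 0.28, adjusted p = 1.18e-09), and Ryr3 rose too (log2 3.66 ± 0.61, adjusted p = 5.39e-06; 4.39 without uninjured library 3). Per kilobase, Atp2a2 made up 0.0848, 0.0557, 0.0469 and 0.0423% of the pump pair in uninjured libraries and 2.07, 1.63, 1.31 and 0.582% at day 7, so the adult form remained the main one. Casq2, the calcium store protein of slow and cardiac muscle, rose from 2.78, 11.7, 4.78 and 12.9 to 331, 285, 319.6 and 292 CPM (log2 5.26 ± 0.49, adjusted p = 5.64e-10). The adult sodium channel gene Scn4a fell (log2 -2.41 ± 0.32, adjusted p = 1.34e-07). Pvalb, the calcium buffer parvalbumin of fast fibres, was at 5829.9, 9238, 3458 and 9296 CPM and 1211, 2621, 1787 and 3831 CPM (log2 -1.56 ± 0.61, adjusted p = 0.0283). Its call was lost without uninjured library 2 (0.0688) or 4 (0.0686), without day 7 library 4 (0.0868) or 6 (0.0708), and with library size alone (0.262). In this list 6 of 26 rose and 16 fell (median -0.86), and with library size alone 10 rose and 7 fell (median 0.01).

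The dystrophin complex links the cytoskeleton to the matrix, and its members moved both ways, 6 of 16 up and 7 down (10 and 2 with library size alone). Dmd, dystrophin, fell from 181, 196, 243 and 212 to 79.7, 75.6, 74.8 and 95.8 CPM (log2 -1.35 ± 0.24, adjusted p = 1.45e-05). Utrn, utrophin, its relative in immature fibres and at junctions, rose from 18.2, 17.6, 25 and 21.3 to 64.4, 69.5, 45 and 45.6 CPM (log2 1.45 ± 0.19, adjusted p = 8.19e-08). Neither gene's groups overlapped, and utrophin went from 12.3, 11.1, 12.5 and 12.3% to 52.9, 56.1, 45.5 and 39.8% of the pair per kilobase. Tubulin forms moved both ways: Tuba4a, the alpha-tubulin of mature fibres, fell from 1383, 1033, 1431 and 1152 to 155, 171, 230.0 and 249.9 CPM (log2 -2.63 ± 0.21, adjusted p = 1.13e-11) and Tuba1b, the general form, rose (log2 3.61 ± 0.39, adjusted p = 8.4e-09). The filament gene Nes, nestin, of immature muscle rose (log2 3.21 ± 0.33, adjusted p = 1.62e-09), while Synm, the desmin partner synemin, fell (log2 -3.16 ± 0.38, adjusted p = 2.64e-08). Des, desmin, was not called (-0.30 ± 0.24, adjusted p = 0.276; 0.54 with library size alone). Of 21 members 15 rose and 4 fell (median 2.48).

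**Figure D2:**
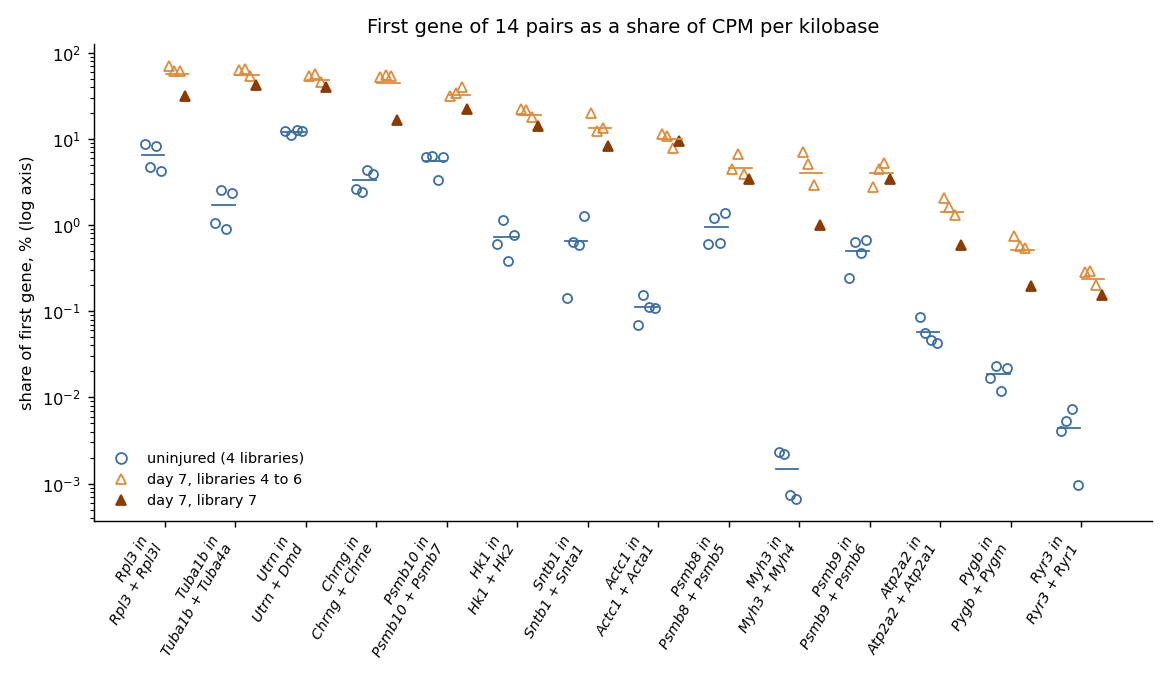
Share (%, log axis) of the first gene in the summed CPM per kilobase of 2 related genes, in each of the 4 uninjured (circles) and 4 day 7 (triangles) libraries, with a line at each group mean and day 7 library 7 in a darker colour. All 14 pairs were chosen after their values were seen. In each, the first gene's share is higher in every day 7 library than in any uninjured one, and library 7 is the lowest or next to lowest of the day 7 libraries.

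Other pairs in that plot moved in the same way, as a description without a test. Rpl3, a ribosomal protein, and Rpl3l, its muscle form, went from 6.49 ± 2.3% Rpl3 (SD, n = 4) to 56 ± 16.8%, with day 7 library 7 at 31.8%. For Hk1 and Hk2, the general and the muscle hexokinase, the share of Hk1 went from 0.721 ± 0.324% to 18.9 ± 3.72%. The immunoproteasome subunit gene Psmb10 went from 5.5 ± 1.47% to 31.8 ± 7.24% of its pair with the standard subunit Psmb7. Psmb7 and Hk2 were chosen after their values were seen.

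Most genes of muscle protein breakdown fell. Fbxo32 and Trim63 encode atrogin-1 and MuRF1, ubiquitin ligases that rise in wasting muscle under FoxO factors. Fbxo32 was at 6369, 2096, 4992 and 1398 CPM without injury and 58.5, 47.7, 72.9 and 45.1 CPM at day 7 (log2 -6.05 ± 0.54, adjusted p = 2.07e-10). Trim63 was at 4447, 1532, 2874 and 742 CPM and 43.2, 61.9, 54.4 and 95.8 CPM (log2 -5.23 ± 0.49, adjusted p = 4.87e-10). Uninjured libraries 1 and 3 had the most of both, and without them the values were -4.96 and -4.15. Library 4, the lowest uninjured one, still lay far above every day 7 library. Asb2, a ligase adaptor of muscle, fell (log2 -3.54 ± 0.24, adjusted p = 5.44e-13), as did Foxo4 (log2 -2.54 ± 0.16, adjusted p = 1.05e-13), from 257, 268, 242 and 289 to 38.5, 44, 51.7 and 47 CPM. Fbxl22, a sarcomere-associated F-box gene, rose (log2 3.30 ± 0.40, adjusted p = 3.3e-08). Of 24 members 3 rose and 16 fell (median -1.66), and with library size alone 7 rose and 12 fell.

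Proteasome subunits fell broadly, 29 of 36, with 5 rising and a median of -0.95. With library size alone 10 fell and 8 rose (median -0.08). Psmd2, a base subunit of the regulatory particle, went from 839, 532, 861 and 540.4 to 170.2, 161, 179 and 188 CPM (log2 -1.99 ± 0.15, adjusted p = 5.49e-12), and Psmd11 fell by as much (log2 -2.07 ± 0.20, adjusted p = 5.67e-10). Catalytic subunits of the immunoproteasome, which interferon induces in immune and other cells, went the other way. Psmb8 (log2 1.88 ± 0.42, adjusted p = 0.000267), Psmb9 (log2 2.55 ± 0.38, adjusted p = 9.23e-07) and Psmb10 (log2 1.59 ± 0.26, adjusted p = 3.74e-06) rose, with no overlap between groups. Cytosolic ribosomal proteins rose in 37 of 83 and fell in 6 (median 0.44), against 74 and 0 with library size alone. Rpsa, a protein of the small subunit, rose from 326, 410.2, 259.7 and 380.2 to 718, 718, 723 and 652 CPM (log2 1.03 ± 0.18, adjusted p = 1.06e-05), while Rpl4 was at 616, 693, 499 and 719.8 and 601, 601, 606 and 592 CPM (log2 -0.07 ± 0.15, adjusted p = 0.691; 0.81 with library size alone). Many ribosomal genes have processed copies, and counts split between copies would make these values uncertain.

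Several genes of fuel use fell. Pdk4, the kinase that restrains pyruvate entry into mitochondria, went from 7092, 5639, 3911 and 3044 to 35, 49, 56.8 and 61.4 CPM (log2 -6.61 ± 0.73, adjusted p = 1.07e-08). Ucp3, an uncoupling protein of muscle mitochondria, went from 537, 802, 540.0 and 543 to 40.1, 51.3, 61.2 and 54.9 CPM (log2 -3.55 ± 0.50, adjusted p = 8.11e-07). Every day 7 library lay far below the lowest uninjured one for both genes. In the list of fatty acid uptake and oxidation 15 of 24 fell and 0 rose (median -0.99), but with library size alone 7 rose and 4 fell (median -0.14). Lpl, the lipoprotein lipase, was not called (0.87 ± 0.40, adjusted p = 0.0644), but was called higher with library size alone (1.73). Glycogen genes fell in 14 of 19 and rose in 3 (median -1.37; 10 and 4 with library size alone). The glycogen phosphorylase kinase subunit genes Phka1 (log2 -2.67 ± 0.38, adjusted p = 5.07e-07) and Phkb (log2 -2.11 ± 0.29, adjusted p = 2.37e-07) and the muscle phosphorylase Pygm (log2 -1.60 ± 0.36, adjusted p = 0.000267) were among them. The brain form Pygb rose from 2.32, 4.36, 2.21 and 4.44 to 32, 27.2, 31.8 and 17.2 CPM (log2 3.03 ± 0.28, adjusted p = 1.62e-10), and Hk1 from 5.1, 7.83, 4.23 and 5.6 to 62.2, 47.2, 63.4 and 56.9 CPM (log2 3.33 ± 0.22, adjusted p = 2.16e-13).

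All 13 proteins encoded by the mitochondrial genome fell under both scalings, with a median of -1.95 (-1.10 with library size alone). Cytochrome oxidase subunit mt-Co1 went from 59560.1, 75765, 42253 and 70992 to 16325, 17176, 18976 and 26326 CPM (log2 -1.66 ± 0.27, adjusted p = 3.51e-06), with day 7 library 7 highest. Nuclear copies of mitochondrial sequence can take reads of these genes, so their levels are uncertain. Mitochondrially encoded genes made up 13.1 ± 2.14% of counts without injury and 6.86 ± 0.793% at day 7 (exact two-sided permutation test, p = 0.0286, the smallest that 70 splits allow, and 0.0357 adjusted over 5 shares). The 10 most abundant genes took 30.1 ± 1.86% and 18.1 ± 3.32%, with the same exact permutation p. The collagen chains' share went from 0.0362 ± 0.015% to 2.08 ± 0.587% and that of cytosolic ribosomal proteins from 0.685 ± 0.168% to 1.7 ± 0.331%, also with that exact permutation p. Adult fast sarcomere genes took 22.7 ± 1.87% without injury and 15.6 ± 3.28% at day 7, which did not pass (exact permutation p = 0.0571), since day 7 library 7 was at 20.2%. Leaving mitochondrial counts out of the total brought that share past the threshold (26.1 ± 2.12% and 16.8 ± 3.68%, adjusted exact permutation p = 0.0286).

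Polyamines are small cations that growing cells make, and the list of genes for their synthesis was mixed, with steep falls in a few members. Amd1, the decarboxylase that supplies propylamine groups, went from 348, 1235, 557 and 1052 to 33, 32.6, 34.5 and 47.1 CPM (log2 -4.44 ± 0.35, adjusted p = 9.74e-12), and spermine synthase, Sms, from 316, 304, 303 and 252 to 46.7, 43.7, 44.4 and 57.5 CPM (log2 -2.61 ± 0.16, adjusted p = 4.54e-14). Odc1, the first enzyme of the pathway, fell too (log2 -3.26 ± 0.26, adjusted p = 7.23e-12). Uninjured levels of Amd1 were higher in libraries 2 and 4 and those of Odc1 in libraries 1 to 3, but day 7 libraries were below them all. Amd1 has near-identical copies, so its counts are uncertain. Sat1, which acetylates polyamines for export, rose (log2 1.81 ± 0.23, adjusted p = 4.6e-08). The list had 3 of 13 higher and 5 lower (median -0.52; 6, 5 and 0.34 with library size alone). Psat1 of the serine pathway rose from 1.08, 2.14, 0.46 and 1.45 to 19.4, 16.8, 15.4 and 11.6 CPM (log2 3.62 ± 0.47, adjusted p = 1.33e-07), as did asparagine synthetase, Asns (log2 3.76 ± 0.36, adjusted p = 3.88e-10), and Aldh18a1 of proline synthesis (log2 2.31 ± 0.27, adjusted p = 1.52e-08). In the list of serine, one-carbon and nucleotide synthesis 13 of 25 rose and 6 fell (20 and 0 with library size alone).

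Cholesterol and iron genes were mixed. Fdft1, which makes squalene, fell from 102, 99.7, 113 and 123 to 8.54, 15.5, 13.1 and 13.9 CPM (log2 -3.10 ± 0.18, adjusted p = 3.77e-14). Of 22 cholesterol genes 8 rose and 6 fell (14 and 2 with library size alone). Under TMM scaling these counts are near the shares of all genes tested, 33.3% higher and 27.5% lower. Tfrc, the transferrin receptor that takes up iron, rose from 25.9, 68.4, 27.7 and 50.9 to 271, 251, 319 and 515 CPM (log2 2.97 ± 0.43, adjusted p = 1.01e-06), with day 7 library 7 highest. Slc40a1, ferroportin, which exports iron, fell (log2 -1.61 ± 0.24, adjusted p = 7.93e-07), and the macrophage iron transporter gene Slc11a1 rose (log2 3.08 ± 0.35, adjusted p = 1.1e-08). Of 15 iron genes 7 rose and 3 fell (11 and 1 with library size alone).

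Cell division genes rose. Mitosis genes were higher in 30 of 31 and lower in 0, with a median of 4.41. Ect2, which places the cleavage furrow, was at 0.232, 0.356, 0 and 0.0965 CPM without injury and 8.06, 6.32, 5.21 and 5.26 CPM at day 7 (log2 5.10 ± 0.66, adjusted p = 1.01e-07), and Kif23, a spindle midzone motor, was like it (log2 4.41 ± 0.57, adjusted p = 8.57e-08). Top2a, the topoisomerase that untangles chromosomes, was at 0.541, 2.05, 0 and 0 CPM and 49.8, 46.6, 37.1 and 26.5 CPM (log2 5.91 ± 0.71, adjusted p = 6.12e-08). Cdk1, the kinase that starts mitosis, had counts in 1 uninjured library (0, 1.07, 0 and 0 CPM) and was at 9.29, 9.67, 9.43 and 3.3 CPM at day 7 (log2 4.87 ± 0.88, adjusted p = 2.34e-05). Uninjured library 2 held most of the uninjured counts of both, and without it the fitted values were 7.58 and 10.23. Replication genes rose in 19 of 29 and fell in 1 (Rfc4, a clamp loader subunit, log2 -1.25 ± 0.38, adjusted p = 0.00501, and adjusted p = 0.439 with library size alone), with a median of 1.58. Mcm6, a subunit of the replicative helicase, rose (log2 3.65 ± 0.43, adjusted p = 2.57e-08), while the sliding clamp gene Pcna was at 26.2, 21.3, 18 and 17.6 and 25, 30.4, 18.4 and 21.7 CPM (log2 0.20 ± 0.24, adjusted p = 0.49). Pcna was called higher with library size alone (1.09).

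The promoters of Cdk1 and Top2a are shown because late cell cycle genes often carry a CHR element (TTTGAA, or TTCAAA on the other strand) and CCAAT boxes (CCAAT or ATTGG). They are RefSeq sequence of GRCm38.p6 on the minus strand, chr10:69352939-69353162 and chr11:99024190-99024439, upstream of the deposited genes (chromosome 10, 69335146 to 69352938, and chromosome 11, 98992943 to 99024189). Capitals mark both motifs, which do not overlap in these windows:
Cdk1: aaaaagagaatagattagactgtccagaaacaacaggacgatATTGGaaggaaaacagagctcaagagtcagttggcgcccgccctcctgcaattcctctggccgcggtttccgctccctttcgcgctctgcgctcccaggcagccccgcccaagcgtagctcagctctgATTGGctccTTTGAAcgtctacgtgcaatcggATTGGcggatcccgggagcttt
Top2a: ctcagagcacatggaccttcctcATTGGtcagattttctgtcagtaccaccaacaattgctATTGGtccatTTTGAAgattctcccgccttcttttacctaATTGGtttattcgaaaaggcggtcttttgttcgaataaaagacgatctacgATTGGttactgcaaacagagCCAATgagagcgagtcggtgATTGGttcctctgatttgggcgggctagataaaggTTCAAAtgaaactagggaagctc
The deposited Cdk1 gene begins 26 bases upstream of the RefSeq start, so its window is printed to 224 bases. In the 250-base windows, TTTGAA was in 10 of 28 mitosis windows (35.7%), 4 of 28 replication windows (14.3%) and 3 of 11 windows of myogenic regulators (27.3%). It was in 11.1% of the windows of tested genes and 16% of all windows. CCAAT was in 21 of 28 mitosis windows (75%), 17 of 28 replication windows (60.7%), 34.5% of the windows of tested genes and 33.9% of all windows. An E2F site, spelled TTTGGCGC, TTTGCCGC, TTTCCCGC or TTTCGCGC on either strand, was in 9 of 28 replication windows (32.1%) and 1 of 28 mitosis windows, against 2.92% of the windows of tested genes and 1.86% of all windows. These are descriptions of letters, not of binding.

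Some inhibitors of the cell cycle were also higher. Cdkn1c, the inhibitor p57 of differentiating muscle, went from 9.59, 11.5, 12.9 and 14.3 to 215, 206, 171 and 169 CPM (log2 3.98 ± 0.36, adjusted p = 2.24e-10). Cdkn1a, the p53 target p21, went from 52.2, 12, 29.2 and 15.2 to 121, 118, 96.4 and 51.1 CPM (log2 1.83 ± 0.42, adjusted p = 0.000532), and its highest uninjured value, in library 1, lay just above the lowest at day 7. The cyclin genes Ccnd1 (log2 4.16 ± 0.48, adjusted p = 2.31e-08) and Ccnd3 (log2 2.55 ± 0.24, adjusted p = 1.84e-10) rose, and Rbl2, the p130 pocket protein of resting cells, fell from 227, 115, 158 and 99.8 to 21, 20.3, 24.9 and 23.7 CPM (log2 -2.74 ± 0.21, adjusted p = 6.95e-12). In this list 10 of 16 rose and 2 fell (15 and 1 with library size alone).

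Both insulin-like growth factor genes and most imprinted genes of this list rose. The insulin-like growth factors drive myoblast growth, and Igf1 went from 4.41, 9.17, 6.53 and 5.89 to 156, 136, 142 and 119 CPM (log2 4.41 ± 0.34, adjusted p = 1.08e-11) and Igf2 from 0.464, 0.801, 1.47 and 0.772 to 64.4, 68, 86 and 71.6 CPM (log2 6.38 ± 0.57, adjusted p = 3.42e-10). H19, the noncoding RNA imprinted opposite to Igf2, went from 273, 193, 162 and 185 to 5724, 6618, 7559 and 8882 CPM (log2 5.15 ± 0.43, adjusted p = 3.15e-11). Day 7 library 7 had the most, unlike for most genes above. In the deposited annotation (mm10) H19 lies on chromosome 7 at 142575529 to 142578143, beside Igf2 at 142650766 to 142666816. Plagl1, an imprinted zinc finger factor, was at 0.541, 0.979, 0 and 1.35 CPM without injury and 93.7, 142, 68.7 and 80.6 CPM at day 7 (log2 7.07 ± 0.62, adjusted p = 2.45e-10). Mest (log2 5.69 ± 0.40, adjusted p = 2.72e-12), Peg10 (log2 5.65 ± 0.42, adjusted p = 5.82e-12), Peg3 (log2 2.15 ± 0.31, adjusted p = 5.21e-07) and Grb10, a brake on insulin receptor signalling (log2 3.64 ± 0.27, adjusted p = 2e-12), rose as well. The list of the IGF axis and imprinted genes had 20 of 24 higher and 2 lower (median 4.03). The binding protein gene Igfbp5 was abundant but uneven, at 1122, 317, 1679 and 442 and 806, 565, 1408 and 827 CPM (log2 0.02 ± 0.38, adjusted p = 0.969). Its call with library size alone was higher (0.89).

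**Figure D3:**
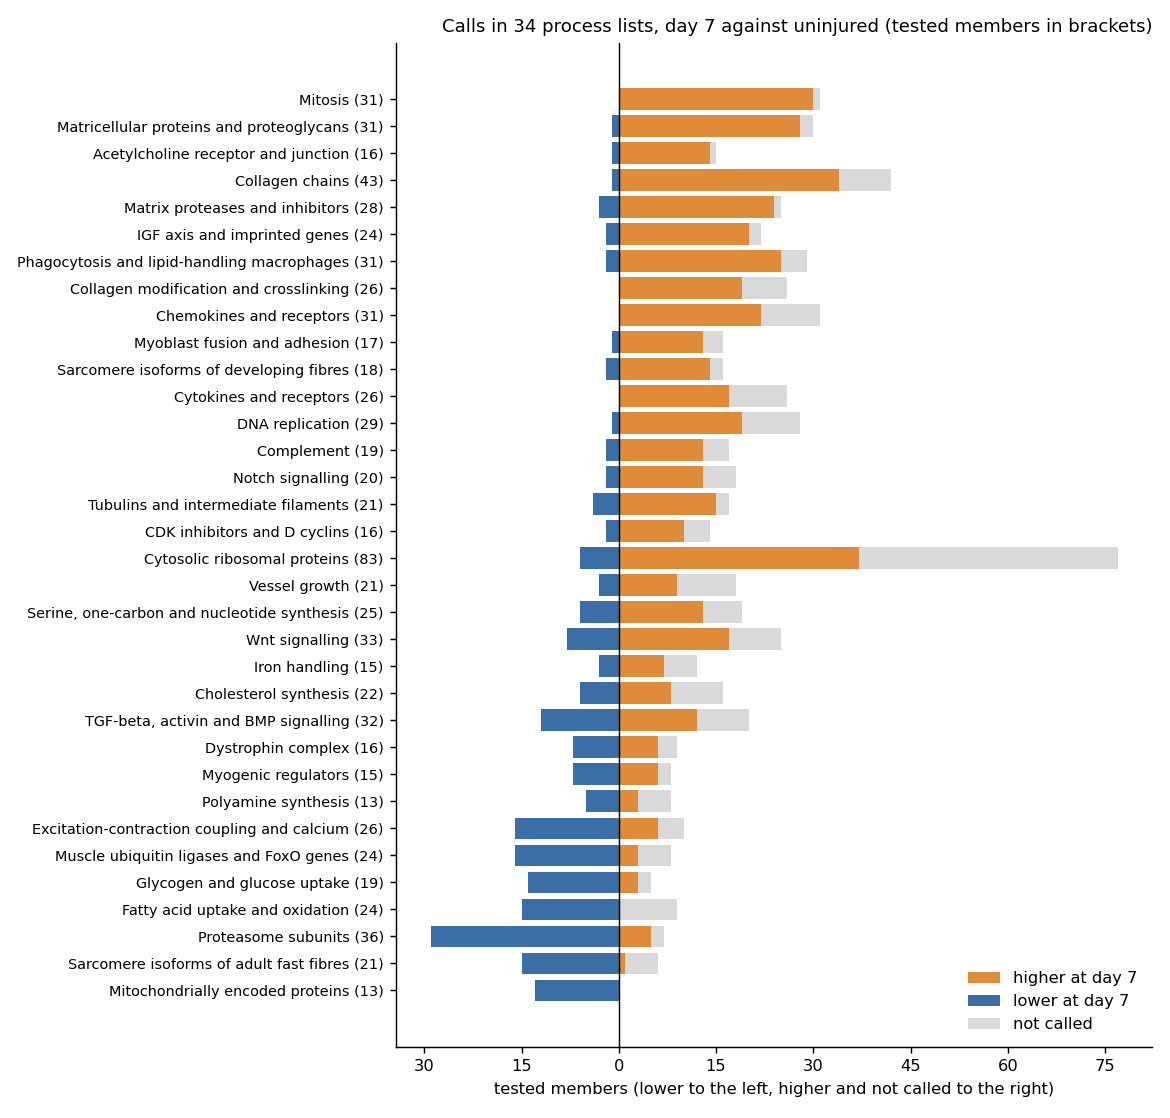
Number of tested members of each of the 34 process lists that rose (right, orange), fell (left, blue) or were not called (grey, drawn beyond the rises) at day 7, at an adjusted p under 0.05. Mitosis and matrix lists lie almost wholly to the right. Mitochondrially encoded and proteasome lists lie mostly to the left, and the fatty acid list has 15 falls, 0 rises and 9 members not called. With library size alone the proteasome list had 8 higher and 10 lower, and the fatty acid list 7 higher and 4 lower. The shares over all 17121 genes were 33.3% higher and 27.5% lower.

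Matrix genes rose in all 4 lists. Collagen chains rose in 34 of 43 and fell in 1, with a median of 3.35 (3.26 with absent genes set at the floor). Col1a1 and Col3a1, the main fibrillar chains, went from 16.6, 64, 19.3 and 59.8 to 4127, 4563, 4023 and 2332 CPM (log2 6.56 ± 0.56, adjusted p = 6.46e-11) and from 33.1, 132, 25.7 and 115 to 4931, 4365, 5047 and 3540.3 CPM (log2 5.87 ± 0.52, adjusted p = 1.02e-10). Uninjured libraries 2 and 4 had several times as much of both as libraries 1 and 3. The Col1a1 value was 5.93 without libraries 1 and 3 and 7.71 without 2 and 4, and every day 7 library lay far above all 4. Col12a1, which coats fibrils in healing tissue, varied more at day 7 (from 0.464, 1.07, 2.67 and 1.83 to 202, 244, 89.3 and 46.2 CPM; log2 6.62 ± 0.81, adjusted p = 1.08e-07), with library 7 lowest. Col9a1, a chain of cartilage fibrils, was the member that fell (0.619, 4.36, 0.552 and 4.25 and 0.948, 0.594, 0.0898 and 0.306 CPM; log2 -2.28 ± 0.79, adjusted p = 0.0135). It was not called without uninjured library 2 (adjusted p = 0.0621) or 4 (0.0553), or with library size alone (0.132), and its value without both was -0.25.

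Enzymes that process collagen rose with it, 19 of 26 with 0 falling (median 2.57). Serpinh1, the collagen chaperone HSP47, went from 11.9, 24.2, 11.1 and 24.2 to 321, 361, 334 and 203 CPM (log2 4.09 ± 0.33, adjusted p = 1.63e-11), and Lox, which crosslinks fibrils, from 11.4, 10.7, 13.4 and 9.07 to 201, 167, 129.8 and 52.3 CPM (log2 3.63 ± 0.54, adjusted p = 2.13e-06). P4hb, a subunit of the prolyl hydroxylase with other roles in the endoplasmic reticulum, was not called (0.32 ± 0.18, adjusted p = 0.116). Library size alone called it higher (1.22). Matricellular proteins and proteoglycans rose in 28 of 31 (median 3.89). Tenascin C, Tnc, was at 0.387, 1.33, 0.46 and 1.45 CPM without injury and 436, 315, 208 and 64 CPM at day 7 (log2 8.16 ± 1.14, adjusted p = 8.38e-07), and day 7 library 7 was the lowest of a wide range. Fibronectin, Fn1, went from 29.1, 63.6, 34.4 and 81.4 to 1522, 1220.2, 931 and 558 CPM (log2 4.34 ± 0.55, adjusted p = 1.21e-07). Cyr61, an immediate early matricellular protein (Ccn1 in newer naming), was the only member called lower, from 242, 90.1, 137 and 60.7 to 18.5, 23.9, 15.9 and 14.7 CPM (log2 -2.86 ± 0.35, adjusted p = 7.42e-08).

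In the list of matrix proteases and their inhibitors 24 of 28 rose and 3 fell. Mmp14, a membrane protease that activates Mmp2, went from 13.3, 17.4, 22.2 and 20.4 to 366, 346, 353 and 265 CPM (log2 4.18 ± 0.35, adjusted p = 3.36e-11), and Mmp2 from 21.3, 25.9, 19.2 and 33.6 to 222, 244, 207 and 164 CPM (log2 3.07 ± 0.30, adjusted p = 5.03e-10). The inhibitors in the list split, since Timp1 (log2 4.45 ± 0.74, adjusted p = 8.6e-06) and Timp2 (log2 1.47 ± 0.22, adjusted p = 9.2e-07) rose while Timp3 (log2 -1.65 ± 0.21, adjusted p = 5.65e-08) and Timp4 (from 21.7, 28.5, 17.6 and 27.8 to 0.316, 2.76, 3.28 and 3.43 CPM; log2 -3.31 ± 0.54, adjusted p = 6.71e-06) fell. Adamts1 was the third member that fell (log2 -1.79 ± 0.20, adjusted p = 4.38e-09). Markers of activated fibroblasts rose in all 9 tested, from a summed 43.8 to 106 to 3381 to 7146 CPM. General markers of fibro-adipogenic progenitors rose in 5 of 11, with Pdgfra, their receptor, at 11.5, 12, 7.91 and 12.3 and then 50.5, 46.8, 45.2 and 44.3 CPM (log2 2.09 ± 0.24, adjusted p = 8.08e-09), and Pi16, of resting adventitial cells, not called (-0.10 ± 0.77, adjusted p = 0.916). The part of cell number in the matrix changes was not tested.

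Signals that restrain or shape muscle growth moved in both directions. Mstn, myostatin, the growth inhibitor made by fibres, went from 105, 60.5, 187 and 87 to 10.4, 10.01, 18.8 and 12.8 CPM (log2 -3.08 ± 0.50, adjusted p = 7.43e-06), and Acvr1b, a receptor through which it acts, from 241, 166, 201 and 174 to 33.5, 35.7, 31.7 and 33.6 CPM (log2 -2.54 ± 0.20, adjusted p = 5.82e-12). Tgfb1 rose from 6.73, 5.52, 2.39 and 5.4 to 57.2, 47.9, 55.3 and 27 CPM (log2 3.22 ± 0.34, adjusted p = 4.02e-09), and Ltbp2, of the latent TGF-beta binding protein family, from 0.387, 0.178, 0.276 and 0 to 67.6, 30.7, 48.2 and 12 CPM (log2 7.46 ± 0.70, adjusted p = 7.07e-10). Smad7, an inhibitor within the pathway, fell (log2 -1.78 ± 0.21, adjusted p = 2.16e-08). The list had 12 of 32 higher and 12 lower (18 and 4 with library size alone).

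Notch signalling genes were mostly higher at day 7. Notch signalling keeps satellite cells undifferentiated and also acts in vessels. Notch2 went from 15.1, 9.7, 19.2 and 9.17 to 90.4, 68.6, 82.9 and 58.1 CPM (log2 2.49 ± 0.24, adjusted p = 3e-10), Notch3, of satellite cells and mural cells, rose by 2.22 on the log2 scale, and the target gene Heyl from 4.64, 4.36, 4.32 and 5.89 to 41, 37.3, 23.2 and 21 CPM (log2 2.68 ± 0.29, adjusted p = 3.83e-09). Hes1, a target shared with other pathways, was at 32.8, 8.81, 84.7 and 8.2 CPM without injury and 5.89, 10.5, 7.59 and 11.4 CPM at day 7 (log2 -1.93 ± 0.46, adjusted p = 0.000659). Uninjured libraries 1 and 3 held most of its counts. The value was -0.92 without library 3 (adjusted p = 0.0294) and 0.05 without both (adjusted p = 0.909). The other member that fell was Rfng, one of the fringe genes that modify the receptors (log2 -0.43 ± 0.14, adjusted p = 0.00719; 0.45 with library size alone). Its call was lost without uninjured libraries 2 and 4 (adjusted p = 0.069), with no filter and with only the groups compared. Of 20 members 13 rose and 2 fell (19 and 1 with library size alone). In the Wnt list 17 of 33 rose and 8 fell (23 and 3 with library size alone). The ligand gene Wnt4 fell from 47.9, 33.5, 75.4 and 63.1 to 5.41, 4.66, 9.03 and 11.3 CPM (log2 -2.86 ± 0.44, adjusted p = 3.07e-06), and the receptor gene Fzd2 (log2 4.62 ± 0.44, adjusted p = 2.64e-10) and the secreted Wnt binder Sfrp2 (from 0.309, 0.801, 0.552 and 0.868 to 46.8, 32.3, 28.3 and 19 CPM; log2 5.66 ± 0.68, adjusted p = 5.99e-08) rose.

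Vessel genes did not move as a block, with 9 of 21 higher and 3 lower (17 and 3 with library size alone). Vegfa was at 112, 162, 90.04 and 157 CPM without injury and 92.8, 123, 115 and 178 CPM at day 7 (log2 -0.03 ± 0.34, adjusted p = 0.936; 0.81 with library size alone). Apelin, Apln, a peptide of sprouting endothelium, rose from 0.232, 1.69, 0.276 and 0.482 to 21.9, 26.4, 25.7 and 31.5 CPM (log2 5.30 ± 0.69, adjusted p = 2.17e-07; 6.32 without uninjured library 2), and its receptor gene Aplnr from 3.63, 7.21, 1.84 and 4.73 to 52.3, 45.4, 50.1 and 47.7 CPM (log2 3.49 ± 0.37, adjusted p = 3.11e-09). Flt1, which traps VEGF, fell (log2 -1.45 ± 0.18, adjusted p = 5.85e-08). Of 12 endothelial markers 5 rose and 4 fell (8 and 3 with library size alone), and their summed level was 406 to 650.2 CPM without injury and 376 to 464 CPM at day 7. Vwf, of mature endothelium, fell from 34.8, 40.6, 61.2 and 50.4 to 14.3, 18.5, 13.7 and 14 CPM (log2 -1.62 ± 0.22, adjusted p = 1.6e-07). Their part in the vessel values was not tested.

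Macrophage genes rose, and neutrophil genes were at or near 0. Macrophage markers rose in all 10 tested, from a summed 22.8 to 135 to 644 to 1283 CPM. Csf1r, the receptor for the macrophage growth factor, was at 8.66, 17.3, 4.97 and 8.68 CPM without injury and 214, 152, 193 and 113 CPM at day 7 (log2 4.09 ± 0.50, adjusted p = 5.92e-08). Mrc1, a receptor of tissue-repair macrophages, rose (log2 3.13 ± 0.41, adjusted p = 2.07e-07), as did Cd68 of their lysosomes (log2 3.83 ± 0.59, adjusted p = 3.77e-06). Only 3 of 10 neutrophil markers passed the filter on low counts, and they summed to 0.482 to 0.801 CPM without injury and 8.07 to 16.1 CPM at day 7. Of these, S100a8 was at 0.0773, 0, 0.276 and 0.0965 and 0.198, 0.382, 0.269 and 0.367 CPM (log2 1.39 ± 1.23, adjusted p = 0.331), and Csf3r, also expressed by monocytes, rose (log2 4.46 ± 0.36, adjusted p = 1.13e-11). T and NK cell genes rose in 14 of 17, and Ikzf2, which muscle also expresses, fell (log2 -0.85 ± 0.29, adjusted p = 0.013). Ikzf2 was not called without uninjured library 4 (adjusted p = 0.082) or day 7 library 4 (0.0508), or with library size alone (0.9995). In uninjured muscle 7 of the list had no counts. Such genes passed the filter through groups where they were higher, so counts over lists of scarce genes are descriptions. Cd4 reached 2.69, 6.4, 5.39 and 3.73 CPM, a share of counts 104 times the uninjured one (exact 95% interval 28.5 to 859.9, counting error only). Ncr1, a receptor of NK cells, had 0 uninjured counts and was at least 19.2-fold higher, taking 3 counts over the uninjured group as the floor. Of 6 B and plasma cell markers tested 1 rose and 2 fell (2 and 1 with library size alone), Ighm among the latter (log2 -1.86 ± 0.38, adjusted p = 0.000118). Dendritic cell markers rose in 7 of 9, and their sum went from 7.74 to 10.9 to 18 to 27.6 CPM.

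**Figure D4:**
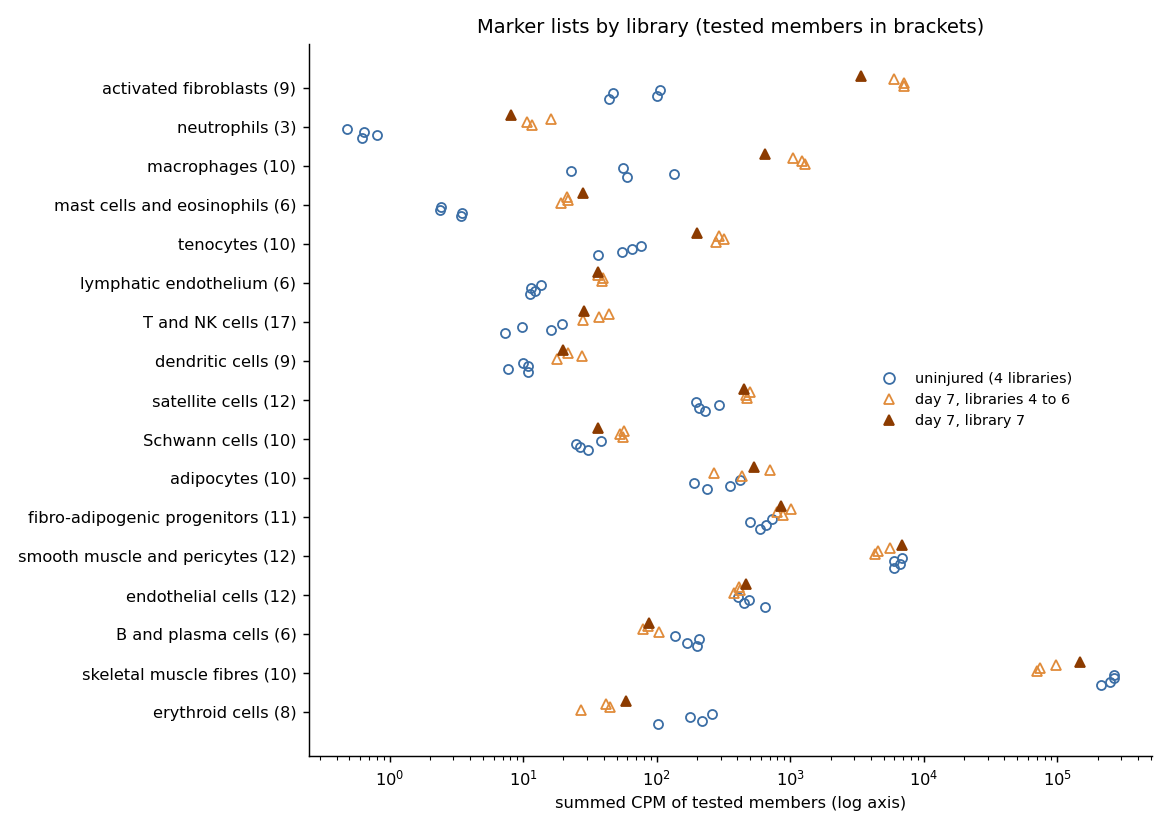
Summed CPM (log axis) of the tested members of each of the 17 marker lists in each of the 4 uninjured (circles) and 4 day 7 (triangles) libraries, with day 7 library 7 in a darker colour. Activated fibroblast and macrophage lists are higher in every day 7 library, fibre and erythroid lists lower in every one, and endothelial and adipocyte lists overlap.

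Chemokine and cytokine lists rose without a fall. Chemokines and receptors rose in 22 of 31 (median 3.24, or 2.79 with absent genes set at the floor) and cytokines and receptors in 17 of 26 (median 2.36). Cxcl16, a chemokine and scavenger receptor, went from 1.24, 1.42, 0.828 and 0.579 to 35.2, 34.5, 24.1 and 18.5 CPM (log2 4.76 ± 0.54, adjusted p = 1.53e-08). Ccr2, the receptor of inflammatory monocytes, was at 36, 25.9, 19.8 and 13.8 CPM at day 7 (log2 3.89 ± 0.58, adjusted p = 1.69e-06), and Cx3cr1, of resident and repair macrophages, at 35.1, 24.6, 31 and 18 CPM (log2 5.87 ± 0.70, adjusted p = 3.97e-08; 6.67 without uninjured library 2). Day 7 library 7 was the lowest of its group for all 3 genes. Tnf and Il6, both inflammatory cytokines, were near 0. Tnf was at 0, 0.089, 0 and 0.0965 CPM and 0.83, 0.127, 0 and 0 CPM and Il6 at 0.309, 0, 0 and 0 CPM and 0, 0.212, 0.18 and 0.367 CPM, neither called (adjusted p = 0.21 and 0.491). The receptor gene Il10rb rose from 2.24, 2.31, 0.644 and 1.93 to 16.4, 18.4, 12.4 and 9.36 CPM (log2 2.98 ± 0.30, adjusted p = 8.68e-10).

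Genes for clearing debris rose in 25 of 31 and fell in 2. The receptor genes for dying cells Mertk (log2 2.72 ± 0.30, adjusted p = 5.68e-09) and Axl (from 13.8, 26.2, 12.2 and 24.6 to 139, 131, 118 and 104 CPM; log2 2.68 ± 0.27, adjusted p = 8.05e-10) rose, together with Pros1, the bridging protein S (log2 2.40 ± 0.25, adjusted p = 1.44e-09). The cholesterol exporter gene Abca1 rose from 20.6, 23.1, 25.2 and 22.2 to 149.9, 122, 127 and 106 CPM (log2 2.47 ± 0.19, adjusted p = 6.21e-12), and Apoe, which carries the lipid, from 55.9, 85, 23 and 44.9 to 719, 974, 1005 and 581 CPM (log2 3.97 ± 0.51, adjusted p = 1.34e-07). None of these genes had overlapping groups. Lyve1, of resident perivascular macrophages and lymphatics, was not called (-0.17 ± 0.84, adjusted p = 0.871). Complement genes rose in 13 of 19 and fell in 2, with C1qc from 4.25, 10.9, 1.38 and 7.14 to 98, 108, 115 and 70.8 CPM (log2 4.06 ± 0.55, adjusted p = 4.63e-07) and the regulator gene Clu falling from 70.8, 102, 44.8 and 69.9 to 6.84, 9.75, 11 and 9.79 CPM (log2 -2.94 ± 0.28, adjusted p = 2.74e-10). Macrophage markers rose with all of these lists, as given above, and their part in them was not tested.

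The other cell type lists differed in size and direction. Of all genes tested, 33.3% were higher and 27.5% lower, and rises in the smooth muscle and lymphatic lists were near the first share. Tendon markers rose in 6 of 10, with Tnmd, of mature tenocytes, from 0.232, 0.712, 0.46 and 0.675 to 7.51, 18.7, 6.11 and 3.98 CPM (log2 4.14 ± 0.80, adjusted p = 6.38e-05; 3.51 without day 7 library 5). In the list of 11 mast cell and eosinophil markers, the 6 tested were mast cell genes. All 6 rose, Kit, a growth factor receptor, among them (log2 3.16 ± 0.39, adjusted p = 3.28e-08). The mast cell gene Ms4a2 and the eosinophil genes Siglecf, Epx, Prg2 and Ear1 did not pass the filter on low counts. Schwann cell markers rose in 1 of 10 and fell in 3 (5 and 2 with library size alone). Smooth muscle and pericyte markers rose in 4 of 12 and fell in 2 (7 and 0 with library size alone). Cspg4, the pericyte proteoglycan NG2, rose (log2 3.01 ± 0.26, adjusted p = 5e-11), and Abcc9, a channel subunit of pericytes and muscle, fell (log2 -1.16 ± 0.27, adjusted p = 0.000537; adjusted p = 0.263 with library size alone). In the lymphatic list 2 of 6 rose, Pdpn, also found on activated fibroblasts, from 0.773, 2.05, 1.84 and 2.6 to 19.4, 23.6, 19 and 17.8 CPM (log2 3.47 ± 0.37, adjusted p = 3.05e-09). Adipocyte markers rose in 2 of 10 and were uneven within groups, and Adipoq was at 0.309, 0.445, 1.66 and 18.5 CPM without injury and 3.75, 1.02, 21 and 9.48 CPM at day 7 (log2 0.76 ± 1.12, adjusted p = 0.568). Erythroid markers fell in 5 of 8, summing to 102 to 259 CPM without injury and 27.1 to 59 CPM at day 7. The haemoglobin gene Hbb-bs went from 32, 57.5, 58 and 65.9 to 6.01, 11.1, 10.02 and 10.3 CPM (log2 -2.51 ± 0.78, adjusted p = 0.00721; adjusted p = 0.0547 with library size alone). Hbb-bs and Hbb-bt are nearly identical, so their reads can be split between them.

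Several of the 12 largest falls among genes of at least 50 CPM were outside these lists. Mylk4, a kinase related to myosin light chain kinases, went from 3102, 5457, 6120.0 and 5777 to 46.2, 64.4, 30.5 and 83.9 CPM (log2 -6.51 ± 0.33, adjusted p = 2.82e-15), the smallest p of the genes tested. Pfkfb3, which makes the activator of glycolysis, went from 904, 1371, 1177 and 540.5 to 18.1, 18.4, 24.5 and 16.7 CPM (log2 -5.68 ± 0.43, adjusted p = 6.96e-12), and Klhl38, a muscle ligase adaptor, from 118, 88.9, 144 and 64.7 to 0.316, 2.25, 3.37 and 1.35 CPM (log2 -5.83 ± 0.57, adjusted p = 1.6e-09). Chac1, which degrades glutathione, fell from 144, 249, 147 and 109 to 0.751, 3.18, 2.43 and 2.26 CPM (log2 -6.24 ± 1.15, adjusted p = 4.31e-05). Every day 7 library lay far below the uninjured ones for these 4 genes. Among the 12 largest rises were Adam12, a protease of fusing cells and activated fibroblasts (log2 8.79 ± 0.70, adjusted p = 3.96e-11; 9.39 without uninjured library 4), Ptn, the growth factor pleiotrophin (from 0.619, 0.178, 0 and 0.868 to 93.9, 93.6, 37 and 37.1 CPM; log2 7.27 ± 0.60, adjusted p = 7.14e-11), and C1qtnf3 (log2 8.64 ± 1.06, adjusted p = 1.2e-07; 9.27 without uninjured library 1).

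At day 35 after injury, 9464 genes (55.3%) differed from day 7 by the same test, 4446 (26%) higher and 5018 (29.3%) lower at day 35. The share of these calls that were higher was 47.0%, and 16.3% with library size alone. Myh3 was at 7.62 ± 7.36 CPM (SD, n = 4) at day 35 and Mymk at 1.98 ± 1.92 CPM. Col1a1 was at 134 ± 40.9 CPM, and Csf1r at 13.2 ± 4.51 CPM. Fbxo32 and Pdk4 were at 1429.8 ± 517 and 4642 ± 1726 CPM. Each of these 6 genes was called in that comparison. In mitosis 31 of 31 members were lower at day 35 than at day 7, in the collagen list 32 of 43 were lower and 4 higher, and in the proteasome list 29 of 36 were higher. Cyp4f39 and Rasd2, among the 12 largest falls, were at 4.7 ± 0.607 and 5.64 ± 0.771 CPM at day 35 and at 54.6 ± 8.18 and 73.7 ± 9.68 CPM without injury. These levels are set side by side without a test of day 35 against uninjured muscle.

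The day 7 response was also set against that of old mice given vehicle, by the difference of the 2 log2 fold changes (young minus old). Of 17121 genes 1319 (7.7%) were called, 767 (4.48%) with a positive and 552 (3.22%) with a negative difference. The share that was positive was 58.2%, and 46.0% with library size alone, 44.8% with RLE factors and 46.9% in DESeq2. The count rests on few libraries. It was 573 without young uninjured library 3, 587 without young uninjured library 1, 740 without young day 7 library 7, 801 and 852 without old uninjured library 6 or 8, and 2152 without old day 7 library 9. With only the 4 groups in the fit it was 173. In the developing sarcomere list 8 of 18 members were called with a positive difference and 0 with a negative one. In the fusion list these were 2 of 17 and 0. The difference is of responses, and uninjured levels differed between the ages. Myh3 was at 2.71, 2.85, 1.38 and 0.965 CPM in young and 66.3, 422, 165 and 1.04 CPM in old uninjured libraries 6 to 9, and at 1425, 1871, 1471 and 2614 CPM in old muscle at day 7 (young minus old 5.84 ± 1.49, adjusted p = 0.0186). Old uninjured library 7 held the most and library 9 the least, and without library 7 the difference was 4.76 (adjusted p = 0.0505). Tnni1 had a difference of 5.82 ± 1.64, adjusted p = 0.0299, and 4.32 without that library (adjusted p = 0.0981). Mymk had 5.50 ± 1.49, adjusted p = 0.0251, and 3.92 without it (adjusted p = 0.0845). Old muscle at day 7 had 126, 108, 81.5 and 82.8 CPM of Mymk, above every young day 7 library. All 3 calls were also lost without young uninjured library 3 and with only the 4 groups in the fit.

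**Figure D5:**
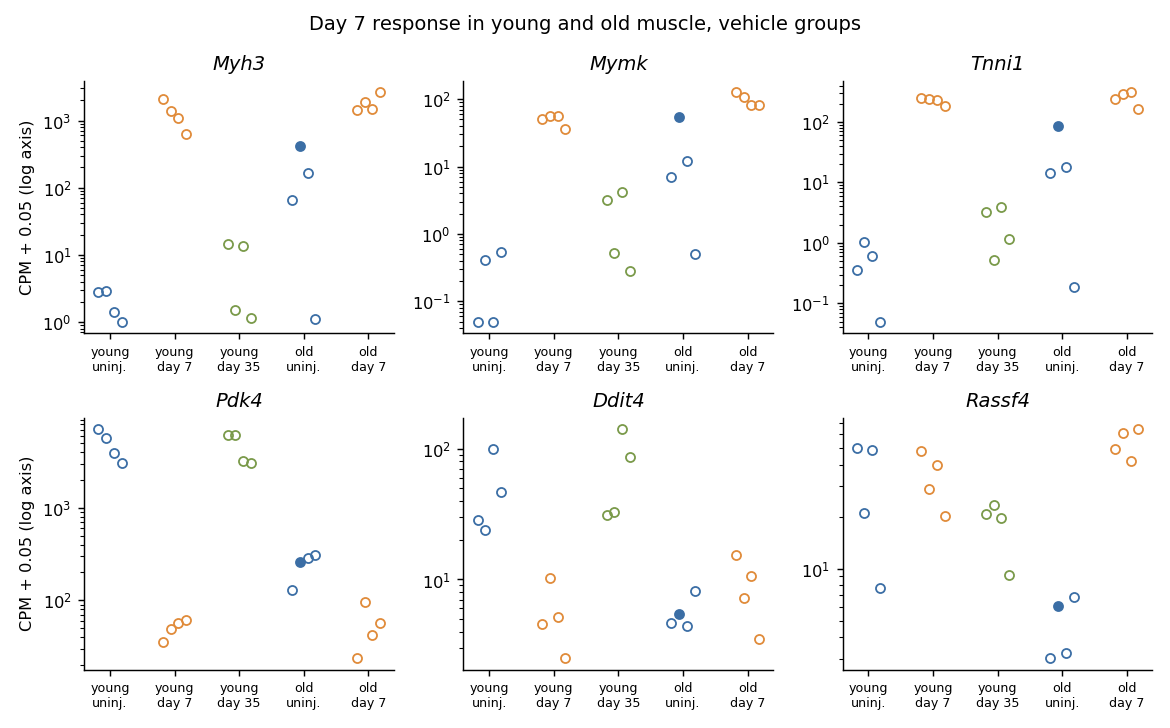
CPM per library (log axis, 0.05 added) of 6 genes whose day 7 response differed between young and old mice, in 5 groups of 4 libraries each. Old uninjured library 7 is drawn filled. In Myh3, Mymk and Tnni1 the old uninjured libraries spread over more than 10-fold, and 3 of 4 lie above all young uninjured ones. In Pdk4, Ddit4 and Rassf4 every young uninjured library lies above every old one.

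Some differences held in each fit that left out 1 library of these 4 groups. Pdk4 was at 7092, 5639, 3911 and 3044 CPM in young and 130.2, 258, 289 and 309.8 CPM in old uninjured muscle, and at 35, 49, 56.8 and 61.4 and 23.6, 95.9, 42 and 56.1 CPM at day 7 (young minus old -4.42 ± 0.84, adjusted p = 0.00328). Ddit4, a stress-induced inhibitor of mTORC1, fell in young muscle (log2 -3.15 ± 0.57, adjusted p = 2.73e-05; -2.56 without uninjured library 3) and was at 4.58, 5.42, 4.32 and 8.14 and then 15.4, 7.16, 10.6 and 3.43 CPM in old muscle (young minus old -3.85 ± 0.78, adjusted p = 0.00544). Rassf4 was at 49.6, 20.9, 48.7 and 7.72 and 47.6, 28.9, 39.6 and 20 CPM in young muscle, with no call (log2 0.10 ± 0.41, adjusted p = 0.845), and went from 2.97, 6.01, 3.2 and 6.83 to 49, 60.8, 41.6 and 64.1 CPM in old (young minus old -3.37 ± 0.60, adjusted p = 0.00244). In young muscle Rassf4 was called higher with library size alone (1.01). For these 3 genes the ages did not overlap without injury and overlapped at day 7. Tfrc, the iron uptake receptor described above, was at 172, 118, 179 and 141 and 88.6, 206, 289 and 294 CPM in old muscle (young minus old 2.44 ± 0.57, adjusted p = 0.0114). Vegfa, not called in young muscle, went from 323, 195, 264 and 290.4 to 48.7, 44.4, 105 and 61.9 CPM in old (young minus old 2.01 ± 0.48, adjusted p = 0.0121). The imprinted gene Peg10 had a difference of 2.11 ± 0.52, adjusted p = 0.0145. These 6 genes were also called with only the 4 groups in the fit. No member of the mitosis, chemokine or macrophage marker lists was called in this difference, which does not show that their responses were alike.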

How the data were processed

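The deposited table holds whole-number counts per gene that the authors made from total RNA of tibialis anterior. The submitters' processing notes name HISAT2 and mm10, and the sources used here do not give the counting tool, its annotation or the use of strand. Reads shared by overlapping, antisense or near-identical genes could therefore have been split or lost. Each of the 32 columns names a group of the labels but not a sample, so a library is given by the number in its column, and 0 columns were left unmapped.

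Genes were filtered with filterByExpr, scaled with TMM factors and tested with edgeR 4.0.16 (R 4.3.3) by the quasi-likelihood test (robust), with 1 mean for each of the 8 groups over all 32 libraries and Benjamini-Hochberg adjustment over 17121 genes. A gene is called at an adjusted p under 0.05. Values per library are CPM with TMM scaling. A ratio against a group without counts uses a floor of 3 counts over the group, and the exact 95% intervals cover counting error only. Data were simulated for day 7 against uninjured young muscle (17121 genes). In them 100 genes were changed 2-fold and 100 were changed 4-fold, up or down at random, and none of these was scarce. The test recovered 81% of 2-fold and 97% of 4-fold changes, with 2 false calls. Few genes were changed, and in both directions, so the simulation does not cover scarce genes or the choice of scaling. Tables and plots were made with Python 3.11.15, pandas 2.3.3, numpy 2.4.6 and matplotlib 3.10.9.

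The text names the 12 largest rises and falls among called genes of at least 50 CPM whose groups did not overlap. From each of 51 lists (34 of processes, 17 of cell type markers, with 982 of 1023 genes tested) it names fixed members, up to 5 with the smallest p, up to 3 of the highest level and up to 3 called against the list's majority, and any member of lists of up to 12. For young minus old it names the 8 largest each way among called genes of at least 10 CPM. The members and lists were chosen with earlier results of these data known. Hk2, Psmb7 and the 14 pairs were chosen after their values were seen. A few genes that this rule names are not reported here. Alternatives were library size alone, RLE factors, DESeq2 1.42.0, limma 3.58.1 (voom), no filter, a filter of 1 CPM in 4 libraries, only the groups compared, and each library left out. Leaving out uninjured libraries 1 and 3, or 2 and 4, was added after seeing the data. Promoters are RefSeq sequence of GRCm38.p6.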

Additional observations from a re-analysis of the deposited data

Results flagged for a closer look

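In 26 of 388 sets of 4 libraries looked at (each group for 189 named genes and 5 shares of counts), a single library stood apart from the other 3 (the gap to its nearest neighbour passed Dixon's 95% critical value). Chance gives about 1 in 20. Day 7 library 7 was the library apart in 10 of them. It was highest for the junction genes Chrnb1 (174 CPM) and Chrne (26.1 CPM), the fast fibre gene Mybpc2 (4847 CPM), Synm (397 CPM), Amd1 (47.1 CPM) and Cyp4f39 (1.1 CPM). It was lowest for the mitotic kinase gene Cdk1 (3.3 CPM), the ribosomal gene Rpsa (652 CPM), the macrophage gene Slc11a1 (13.1 CPM) and the slow troponin gene Tnni1 (180.3 CPM). Among the other day 7 libraries, library 4 was highest for Musk (21.9 CPM) and Tnf (0.83 CPM) and library 5 for Vwf (18.5 CPM).

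In uninjured muscle, library 1 was highest for Myod1 (31.9 CPM) and Il6 (0.309 CPM). Library 2 was highest for Cd68 (8.99 CPM), Cdk1 (1.07 CPM) and Ucp3 (802 CPM) and lowest for Ncam1 (3.11 CPM). Library 3 was highest for Cdh15 (73.8 CPM) and Flt1 (69.4 CPM) and lowest for Pdgfra (7.91 CPM) and Psmb10 (2.58 CPM). Library 4 was highest for the fat hormone gene Adipoq (18.5 CPM) and for Adam12 and Mymx (0.289 CPM each).

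The day 7 response differed between young and old mice for 26 of the genes named, by edgeR's quasi-likelihood test of the difference. Of these 26 calls, 18 were lost with only the groups compared, 14 in limma voom and 11 with no filter. Library size alone ended 2 of them, and RLE factors and DESeq2 ended 1 each. The differences of Myh3 (5.84), Tnni1 (5.82), Mymk (5.50), Tfrc (2.44), Vegfa (2.01) and Peg10 (2.11) are given above. So are those of Pdk4 (-4.42), Rassf4 (-3.37) and Ddit4 (-3.85, and -3.25 without young uninjured library 3). For 4 other named genes of the developing sarcomere list the rise was called larger in young muscle. For all 4, old uninjured libraries 6 to 8 lay above every young uninjured one. None of the 4 was higher in every young day 7 library than in every old one. None of these calls held without old uninjured library 7 or with only the 4 groups in the fit. The young minus old difference of Tnnt1 was 5.03 (adjusted p = 0.0463) and 3.29 without that library (0.184), that of Tnnt2 4.39 (0.0327) and 2.88 (0.127), that of Myh8 3.10 (0.0201) and 2.02 (0.0772), and that of Myl4 2.86 (0.0181) and 1.89 (0.0642). Igf2 (2.47, adjusted p = 0.0326) and H19 (1.71, 0.0388) were not called without it either (1.28, 0.162, and 0.84, 0.199). Casq2 stayed called without it (2.45, adjusted p = 0.0128, and 1.66, 0.0391), but not with only the 4 groups in the fit (adjusted p = 0.0816).

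Lrp4 rose more in young muscle (1.09, adjusted p = 0.046), and Rpl3l fell less (2.40, 0.0233), where its own fall was not called with library size alone (adjusted p = 0.0798). Falls were deeper in young muscle for Trim63 (-2.39, adjusted p = 0.0149, and -1.90, 0.0563, without young uninjured library 1), Fbxo32 (-2.16, 0.0332), Cyr61 (-2.12, 0.00875), Odc1 (-1.95, 0.00201), Adamts1 (-1.37, 0.00361) and Rbl2 (-1.19, 0.012). For each of these genes with deeper falls in young muscle, Trim63 to Rbl2, the ages overlapped at day 7. Without injury every young library lay above every old one for these same genes, except for Cyr61, where the ages overlapped. With only the 4 groups in the fit, Trim63 (adjusted p = 0.0637), Fbxo32 (0.0831), Cyr61 (0.0649) and Rbl2 (0.058) were not called. Neither were Lrp4 (0.128), Rpl3l (0.0837), Musk (0.12) and Abca1 (0.14). Musk fell in young muscle and was at 0.22 in old (difference -2.32, adjusted p = 0.0321; -1.72, 0.121, without young uninjured library 3). Abca1 rose less in young (-0.81, adjusted p = 0.0481). Of 16 fits that each left out 1 library, all 16 called Casq2, Cyr61, Odc1, Adamts1, Rbl2, Pdk4, Ddit4, Rassf4, Tfrc, Vegfa and Peg10. Tnnt1 was called in 3, Lrp4 in 4, Abca1 and Musk in 5, Fbxo32 in 7, H19 in 9, Tnni1 in 10, Igf2 and Tnnt2 in 11, Mymk and Rpl3l in 13, Myh3 and Myh8 in 14, and Myl4 and Trim63 in 15.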

How the results depend on the processing

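No paired analysis was possible because the columns carry numbers that are not the replicate numbers of the titles, so no replicate block could be fitted. The count of genes called between day 7 and uninjured young muscle (10413) lay between 8453 (only the groups compared) and 11686 (library size alone) under the alternatives tried. It was 9741 to 10452 with 1 library left out, 9515 without uninjured libraries 2 and 4 and 8731 without 1 and 3. Of 171 named genes that were called, 156 kept call and direction under every alternative and 166 under those that left out 1 library. Library size alone ended 9 calls (Rpl3l and those given above) and turned Dysf (0.26) and Rfng (0.45). Of 18 named genes not called, 11 were called higher with it. Among them were Itgb1 (1.15), P4hb (1.22), Pcna (1.09), Lpl (1.73), Myh1 (1.54), Igfbp5 (0.89) and Rassf4 (1.01). For the rest, library size alone turned the direction: Cdh15 (0.76), Des (0.54), Rpl4 (0.81) and Vegfa (0.81). It also turned the list medians of myogenic regulators (0.38), excitation-contraction coupling (0.00647) and polyamine synthesis (0.34). Without uninjured libraries 1 and 3 Hes1 was at 0.0527, and the medians of the dystrophin complex (-0.0537), Schwann cell (-0.0503) and smooth muscle and pericyte markers (-0.0269) turned. With 1 library left out, the median of the dystrophin complex ranged from -0.0871 (without day 7 library 7) to 0.132. That of Schwann cell markers ranged from -0.0511 (without uninjured library 2; -0.0374 without library 3) to 0.324, and that of B and plasma cell markers from -0.23 (without day 7 library 7) to 0.61 (-0.73 with only the groups compared). The young minus old count of 1319 was 2030 in DESeq2, 817 with no filter and 173 with only the groups compared, and 573 to 2152 with 1 library left out. The fall of the adult fast sarcomere share passed the threshold with mitochondrial counts left out (-9.30 percentage points). The cause of these moves was not tested. Depth limits the scarce genes: cytokines, lymphocyte markers and cell cycle genes had few or no uninjured counts, so the size of their rise is uncertain.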
